A study of Mus musculus with 6 samples.

Results

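The 10 transcription factors described here are the inducers of the epithelial-to-mesenchymal transition Snai1, Snai2, Snai3, Twist1, Twist2, Zeb1, Zeb2 and Prrx1, with Grhl2 and Ovol2, which hold cells in the epithelial state. They were picked by gene symbol from the deposited tables, where all 10 were found among 28043 gene rows. The libraries were polyadenylated RNA of primary retinal pigment epithelium (RPE) cells from mouse eyes. Of these, 3 were labelled Normal, from normal mice, and 3 PVR, from mice with proliferative vitreoretinopathy, a scarring disease in which cells form contractile membranes in the vitreous and on the retina. The series title calls the disease traumatic. The sources used here do not give how it was induced, its duration, the strain, sex and age of the mice, or whether animals were pooled or cells cultured. Nothing in the labels says that replicates came from separate animals, so p-values measure the spread between these samples, which may be technical.

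In this transition, epithelial cells lose junctions and polarity and gain motility and matrix production. Snail (Snai) and Zeb proteins are zinc-finger factors that bind E2 boxes, the 6-base sequences CACCTG and CAGGTG, and repress junction genes such as Cdh1, which encodes E-cadherin. Twist proteins are basic helix-loop-helix factors and Prrx1 is a homeobox factor, whereas Grhl2 and Ovol2 repress Zeb genes and sustain junction genes. The RPE is a pigmented epithelium of neural origin, and its loss of epithelial features is a known event in proliferative vitreoretinopathy.

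Each library held 15269983 to 19173187 reads. The values are normalised read counts, that is reads divided by 1 size factor per library, and 3 reads, the limit that a count of 0 allows, correspond to 2.72 to 3.42 of them. Markers of RPE cells were abundant in all 6 libraries (12 of 12 tested, summed level 820952 to 884344 in Normal and 600848 to 659918 in PVR, 1 higher and 5 lower in PVR), though Best1, a chloride channel of the RPE, stood at only 7.56 to 22.8. Over all genes tested, 17.9% were higher and 12.9% lower in PVR. Normal replicate 2 stood apart by its markers of surface epithelium, such as the keratin Krt5. The summed level of those 10 markers was 3468 in it against 173 and 193 in the other Normal libraries and 235 to 296 in PVR. The main results that changed without that library are therefore also given without it.

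Between Normal and PVR cells, 5 of the 10 factors rose and none of the tested ones fell: Prrx1, Snai1, Twist1, Zeb2 and Zeb1, in falling order of their change. Only these 5 had enough reads for the test. The other 5, Snai2, Snai3, Twist2, Grhl2 and Ovol2, had at most 20 reads in any library and are given by their reads. Among the 15766 genes tested with limma (adjusted p under 0.05), 17.9% were called higher in PVR and 12.9% lower, and the median log2 change was -0.02. The median over the 5 tested factors was 1.27. A factor passes the filter on low reads only with enough reads in at least 1 group, so the 5 do not stand for all 10. Fewer cells of a type and less RNA per cell cannot be told apart in such bulk samples. The groups did not overlap for any of the 5, a pattern seen with PVR above for 24.7% of all tested genes. The same 5 were called by the quasi-likelihood test of edgeR, in which 17.7% of genes were called higher, and by DESeq2, in which 18.3% were.

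**Figure D1:**
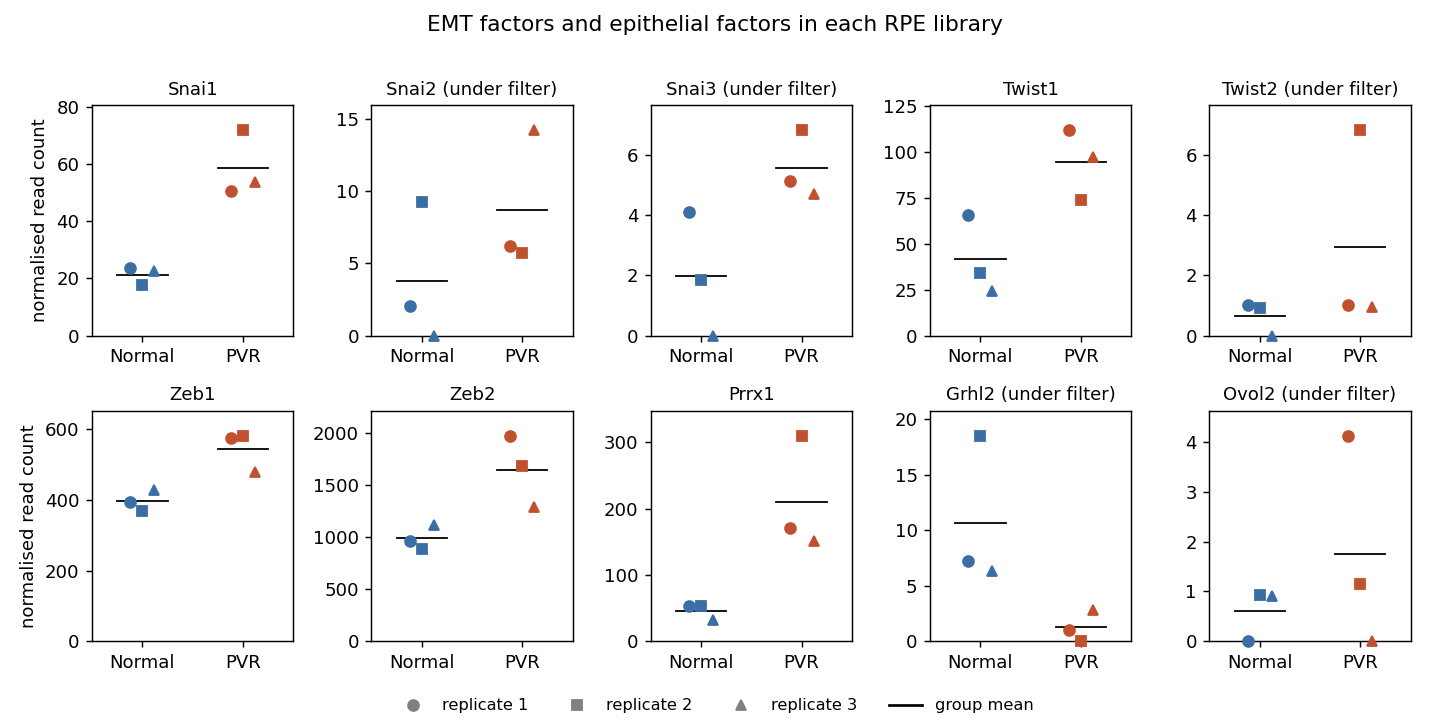
Normalised read count (y axis, linear, from 0, own scale in each panel) of the 10 factors in each library, with Normal in blue, PVR in orange, a marker shape for each replicate number and a line at the group mean. Prrx1, Snai1, Twist1, Zeb1 and Zeb2 lie higher in all 3 PVR libraries than in any Normal library, and the panels marked as under the filter rest on 20 reads or fewer in each library.

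Snai1, the Snail factor, is a short-lived repressor of Cdh1 (chromosome 2, bases 167538195 to 167542814, plus strand, GRCm38, the assembly also called mm10). It stood at 23.7, 17.6 and 22.7 normalised reads in Normal replicates 1 to 3 and at 50.5, 71.8 and 53.8 in PVR replicates 1 to 3. All PVR libraries were above all Normal ones, with replicate 2 the lowest in Normal and the highest in PVR. The mean was 21.3 ± 3.27 in Normal and 58.7 ± 11.4 in PVR (SD, n = 3 each), 2.75-fold. Snai1 thus rose by a log2 change of 1.41 (SE 0.31, 95% interval 0.73 to 2.1, adjusted p = 0.0067 by limma). It rested on 67 and 169 reads in all, and its call held in all 18 alternative settings, with log2 changes of 1.26 to 1.51.

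Snai2, or Slug, drives neural crest migration and also represses junction genes (chromosome 16, bases 14705852 to 14709385, plus strand). It had 2, 10 and 0 reads in the Normal libraries and 6, 5 and 15 in the PVR libraries, and the groups overlapped through Normal replicate 2. Pooled over each group this was 3.81 normalised reads (95% exact Poisson interval 1.97 to 6.65) in Normal and 8.94 (5.84 to 13.1) in PVR, intervals that cover counting error only. With every gene kept, its log2 change was 1.51, with an adjusted p of 0.208 by limma. Without Normal replicate 2 it passed the threshold (2.36, adjusted p = 0.0321 by limma), so the call on Snai2 rests on that library.

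Snai3, the least studied Snail factor, is transcribed in muscle and blood cells (chromosome 8, bases 122454208 to 122460733, minus strand). It had 4, 2 and 0 reads in Normal against 5, 6 and 5 in PVR, so the groups did not overlap but lay 1 read apart. The ratio of pooled levels was 2.89, with a counting interval of 1.07 to 9.02. With every gene kept its log2 change of 1.41 did not pass the test (adjusted p = 0.214 by limma). At this depth a change of Snai3 was not detectable beyond the spread between libraries.

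The promoter window of Snai1 is shown with those of 3 epithelial genes that Snail and Zeb factors are known to repress or that belong to the same junctional and apical group. These are Pard6b, a polarity protein, Tjp3, a tight junction scaffold, and Muc1, an apical mucin. Each is the 250 bases before a RefSeq start site (GRCm38.p6), 5′ to 3′ on the strand of the gene, with E2 boxes in capitals. These windows hold the box and no annotated exon base. The same is true of the windows of Cldn4 and Epcam, epithelial genes with too few reads to test, which are not printed. Pard6b and Tjp3 fell in PVR and Muc1 rose, and these 3 were chosen after their values were seen.
Snai1, chr2:167537945-167538194, plus strand: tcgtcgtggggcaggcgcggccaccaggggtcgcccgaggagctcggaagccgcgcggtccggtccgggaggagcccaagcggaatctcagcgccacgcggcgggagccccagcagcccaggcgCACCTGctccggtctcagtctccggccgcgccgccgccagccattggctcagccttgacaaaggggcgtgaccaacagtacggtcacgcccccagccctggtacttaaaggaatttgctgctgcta
Pard6b, chr2:168080754-168081003, plus strand: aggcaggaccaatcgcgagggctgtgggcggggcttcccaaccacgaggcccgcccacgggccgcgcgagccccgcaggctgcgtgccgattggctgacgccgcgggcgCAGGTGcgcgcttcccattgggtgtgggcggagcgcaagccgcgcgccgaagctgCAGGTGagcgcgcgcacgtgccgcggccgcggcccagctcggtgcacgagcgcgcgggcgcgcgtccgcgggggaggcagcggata
Tjp3, chr10:81291582-81291831, minus strand: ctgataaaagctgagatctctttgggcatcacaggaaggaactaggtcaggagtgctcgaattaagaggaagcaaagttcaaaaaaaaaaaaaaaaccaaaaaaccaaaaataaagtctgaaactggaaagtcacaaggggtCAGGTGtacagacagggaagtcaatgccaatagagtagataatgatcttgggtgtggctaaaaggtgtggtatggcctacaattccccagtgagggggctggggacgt
Muc1, chr3:89228806-89229055, plus strand: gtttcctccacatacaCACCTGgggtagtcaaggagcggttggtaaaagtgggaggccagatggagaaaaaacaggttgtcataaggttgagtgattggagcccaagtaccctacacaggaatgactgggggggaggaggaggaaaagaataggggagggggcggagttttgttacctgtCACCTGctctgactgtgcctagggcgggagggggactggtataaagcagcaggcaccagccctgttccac
The Snai1 window holds 1 box, starting at position -126 from the start site. Pard6b holds 2, at -141 and -86, Tjp3 holds 1, at -108, and Muc1 holds 2, at -234 and -70. Another Tjp3 window, which has annotated exon bases and is not printed, holds a box at -17 from its own start site. CACCTG and CAGGTG are the same box read from opposite strands, and both were searched. At least 1 box was found in 17.2% of all 32851 promoter windows and 2 or more in 2.06%. A match is a string of letters and not a shown binding site.

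Twist1, needed for mesoderm and neural crest formation, lies on chromosome 12 (bases 33957671 to 33959829, plus strand). It stood at 66.0, 34.3 and 24.5 normalised reads in Normal and 112, 74.0 and 97.3 in PVR. The groups did not overlap, but the highest Normal library, replicate 1, came close to the lowest PVR library, replicate 2. The mean was 41.6 ± 21.7 in Normal and 94.5 ± 19.3 in PVR (SD, n = 3 each), and Twist1 rose by a log2 change of 1.27 (SE 0.37, 95% interval 0.44 to 2.09, adjusted p = 0.0264 by limma). The call was lost without Normal replicate 2 (adjusted p = 0.0583), Normal replicate 3 (0.085), PVR replicate 1 (0.0869) or PVR replicate 3 (0.0616), all by limma, with log2 changes of 0.95 to 1.65 as single libraries were left out. With replicates 1 and 2 alone the log2 change was 0.92, with an adjusted p of 0.148 by limma.

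Twist2, known from dermal and bone progenitors, had 1, 1 and 0 reads in Normal and 1, 6 and 1 in PVR (chromosome 1, bases 91801461 to 91848028, plus strand). Only PVR replicate 2 was above the limit that a count of 0 allows. The ratio of pooled levels was 4.34, with a counting interval of 0.866 to 41.9, so no difference was detectable at this depth. Twist2 also shares 1477 exon bases with a gene on the other strand.

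Per length, Zeb2 was the most abundant of the 10 factors and Zeb1 came next in Normal cells. Zeb2 represses epithelial genes and is also expressed by macrophages and glia (chromosome 2, bases 44983632 to 45117395, minus strand). It stood at 966, 887 and 1119 normalised reads in Normal and 1976, 1686 and 1289 in PVR. PVR replicate 3 was the closest to the Normal libraries and PVR replicate 1 the farthest. The mean rose from 991 ± 118 to 1650.3 ± 345 (SD, n = 3 each), 1.67-fold. The log2 change was 0.72 (SE 0.16, 95% interval 0.36 to 1.08, adjusted p = 0.00825 by limma), and the call held in all 18 alternative settings (0.58 to 0.98).

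Zeb1, the E-cadherin repressor kept low in epithelia by the miR-200 family, lies on chromosome 18 (bases 5591860 to 5775467, plus strand). It stood at 395, 369.5 and 427 normalised reads in Normal and 576, 582 and 478 in PVR. PVR replicate 3 was again the nearest to Normal. The mean rose from 397 ± 28.7 to 545 ± 58.3 (SD, n = 3 each), only 1.37-fold, the smallest change of the 5. Its log2 change was 0.45 (SE 0.13, 95% interval 0.17 to 0.74, adjusted p = 0.0221 by limma). The direction held in all 18 alternative settings, but the call was lost without Normal replicate 1 (adjusted p = 0.0649), Normal replicate 2 (0.0807), PVR replicate 1 (0.0667) or PVR replicate 2 (0.0722), all by limma.

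Both Zeb genes share exon bases with neighbours whose reads may be mixed in by the counting, whose use of strand the sources used here do not give. Zeb2 shares 653 with its antisense gene Zeb2os, which stood at 3.63 to 20.6 normalised reads in Normal and 18.2 to 45.3 in PVR. Zeb1 shares 198 with Gm10125, which stood at 20.4 to 38.1 in Normal and 13.2 to 25.7 in PVR. The part of shared exons in the values of the Zeb genes was not tested.

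Prrx1, a homeobox factor of limb, craniofacial and fibroblast lineages, showed the largest change of the 5 (chromosome 1, bases 163245119 to 163313710, minus strand). It stood at 52.6, 53.7 and 32.6 normalised reads in Normal and 171, 309.8 and 151 in PVR. The lowest PVR library was well above the highest Normal one, and PVR replicate 2 lay far above the other PVR libraries. The mean rose from 46.3 ± 11.9 to 211 ± 86.5 (SD, n = 3 each), 4.55-fold. The log2 change was 2.12 (SE 0.32, 95% interval 1.41 to 2.83, adjusted p = 0.000965 by limma), above that of 93.6% of all tested genes. The call held in all 18 alternative settings, with log2 changes of 1.81 to 2.45.

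**Figure D2:**
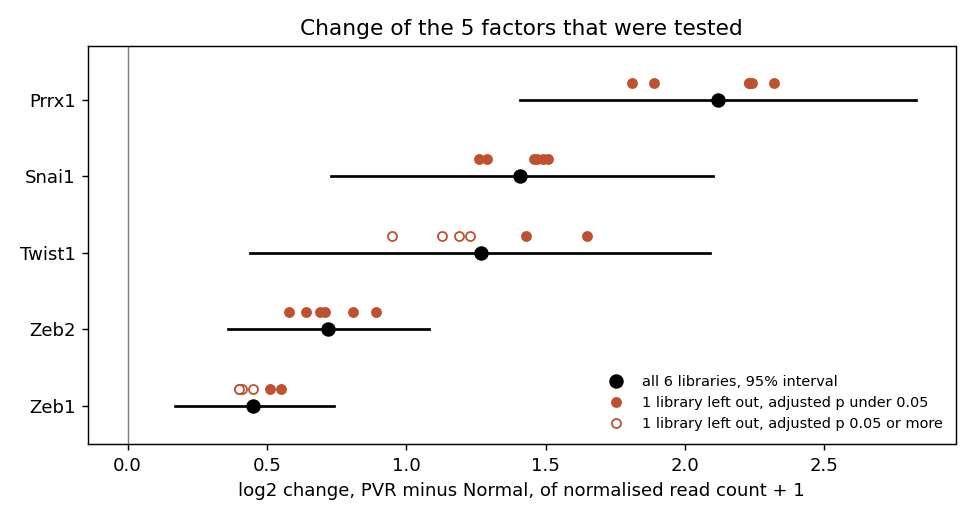
Log2 change (x axis, PVR minus Normal, of normalised read count + 1) of the 5 tested factors: black points and lines are all 6 libraries with the 95% interval, and orange points leave out 1 library each, open where the adjusted p of limma was 0.05 or more. Prrx1, Snai1 and Zeb2 have filled points only, while Twist1 and Zeb1 have 4 open points each.

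Of the epithelial gatekeepers, Grhl2, a grainyhead factor that binds and activates Cdh1 and claudin genes, was read mainly in Normal cells (chromosome 15, bases 37233036 to 37363569, plus strand). It had 7, 20 and 7 reads in Normal and 1, 0 and 3 in PVR. Every Normal library was above every PVR library, a pattern with PVR below that 23.3% of all tested genes showed, and replicate 2 was the highest Normal library. Pooled, Grhl2 stood at 10.8 normalised reads in Normal (95% exact Poisson interval 7.47 to 15.1) and 1.38 in PVR (0.375 to 3.52). No PVR library exceeded 3 reads, the limit that a count of 0 allows. The ratio of Normal to PVR was 7.84, with a counting interval of 2.8 to 30.4.

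Grhl2 was under the filter on low reads and has no call among the 15766 genes. With every gene kept, where limma called 6.96% of genes lower, its log2 change was -2.41 (adjusted p = 0.0189 by limma). It was -2.87 in edgeR (adjusted p = 0.0429) and -3.0 in DESeq2 (adjusted p = 0.0606), so DESeq2 did not call it. Without Normal replicate 2, the library with the surface epithelium markers, it was -1.97 (adjusted p = 0.111 by limma), and without PVR replicate 2 it was -1.92 (adjusted p = 0.089 by limma). Grhl2 shares 169 exon bases with Gm16136, which stood at 0.906 to 4.63 in Normal and 0 in PVR. The part of surface epithelium cells in the Grhl2 reads of Normal replicate 2 was not tested.

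Ovol2, a zinc-finger repressor of Zeb1, was at the edge of detection, with 0, 1 and 1 reads in Normal and 4, 1 and 0 in PVR (chromosome 2, bases 144305175 to 144332146, minus strand). Both group means, 0.611 ± 0.529 and 1.75 ± 2.13 normalised reads (SD, n = 3 each), lie below the limit that a count of 0 allows, and no fold is given. Neither a fall nor a rise of Ovol2 could be seen at this depth. Its direction with every gene kept depended on 1 library, with a log2 change of 0.53 in all 6 and -0.08 without PVR replicate 1.

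Read per kilobase of exon, the order of the levels can be set across factors. In Normal cells Zeb2 (49.7 ± 5.92 normalised reads per kilobase) was above Zeb1 (38.7 ± 2.8), and Twist1 (25.5 ± 13.3) overlapped Zeb1 (SD, n = 3 each). Snai1 (13.2 ± 2.02) and Prrx1 (4.18 ± 1.07) followed, each below the range of the factor before it. Snai2, Grhl2 and Snai3 at 1.22 to 1.87 and Ovol2 and Twist2 at 0.205 to 0.289 did not differ from their neighbours in the order beyond the range of the libraries.

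In PVR cells Zeb2 (82.8 ± 17.3 per kilobase), Twist1 (58.1 ± 11.8) and Zeb1 (53.1 ± 5.68) overlapped in that order, followed by Snai1 (36.2 ± 7.06) and Prrx1 (19.0 ± 7.81). Snai2 (4.29 ± 2.35) and Snai3 (3.42 ± 0.686) came next and overlapped each other. Twist2, Ovol2 and Grhl2 were the lowest, at 0.15 to 0.925 per kilobase. Twist2 lay below the range of Snai3, and each of the lowest factors overlapped the next in that order. The order depends on the length used. Per kilobase of the longest coding transcript, Zeb1 stood at 94.0 and Twist1 at 58.1 in PVR, the reverse of the order by all exons.

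For each tested factor, the genes with the most similar profile were those with the highest Pearson correlation over the 6 libraries. For Prrx1 these were Arhgap19, F13a1, a transglutaminase subunit found in macrophages, and Stab1, a scavenger receptor (r of 0.9974 to 0.9992). For Snai1 they were Ncapg2, Edem2 and Slc36a2 (0.9971 to 0.9984), and for Zeb2 Ago2, Cemip2 and Eprs (0.9968 to 0.9979). Zeb1 was most like Ascc3, Rassf4 and Tpt1 (0.997 to 0.9986), and Twist1 was most like Irf1, Spaca6 and Socs3 (0.9858 to 0.992). With 6 libraries that differ mainly by group such values are common. Counts of genes over 0.95 ran from 72 for Twist1 to 793 for Prrx1, so they describe shared profiles and carry no p.

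Markers of other cell types differed between the groups together with the factors. Of 18 macrophage markers, 17 were higher and 1 lower in PVR (median log2 change 4.41), against 17.9% higher and 12.9% lower over all genes tested. None was at 0 in either group. Their summed level was 10879.9 to 12259 in Normal and 67597, 92449 and 37687 in PVR replicates 1 to 3. Ptprc, the pan-leukocyte marker CD45, rose from 32.2 ± 10.2 to 628 ± 276, while Csf1r, the macrophage growth factor receptor, was the 1 lower marker, from 10038 ± 998 to 7392 ± 947. Csf1r thus made up most of the summed level in Normal, so the sum understates the rise of the other markers. The call on Csf1r (adjusted p = 0.0255 by limma) was lost without Normal replicate 3 (0.0858), PVR replicate 1 (0.0935) or PVR replicate 2 (0.053). Of 13 fibroblast markers, 9 of the 12 tested were higher and none lower, with a summed level of 4406 to 8518 in Normal and 25735, 28180.1 and 18817 in PVR. Without Normal replicate 2, 11 of the 12 tested were higher and none lower, where 2733 of 16324 genes were higher and 1489 lower. Tcf21, a fibroblast factor, had 0 reads in all Normal libraries and 4, 2 and 2 in PVR, of which only the first is above the limit that a count of 0 allows.

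PVR replicate 3 had the lowest macrophage and fibroblast sums of the PVR libraries and also the lowest Zeb1, Zeb2 and Prrx1 levels among them. PVR replicate 2 had the highest sums and the highest Snai1, Zeb1 and Prrx1. The full order of the macrophage and fibroblast sums, replicate 2 above 1 above 3, was that of Zeb1 and Prrx1. The other 3 factors did not follow it: Zeb2 was highest in PVR replicate 1, Snai1 was lowest there, and Twist1 was lowest in PVR replicate 2. Some of these ranks rest on small differences: Zeb1 stood at 582 and 576 in PVR replicates 2 and 1. Prrx1 stood at 171 and 151 in PVR replicates 1 and 3, and Snai1 at 53.8 and 50.5 in PVR replicates 3 and 1. The part of macrophages and fibroblasts in the change of the factors was not tested. Pericyte and smooth muscle markers summed to 3064 to 3287 in Normal and 2779 to 3646 in PVR, and endothelial markers to 337 to 1072 and 917 to 1481. The 10 lymphocyte markers, none with enough reads to test, summed to 4.63 to 12.4 in Normal and 30.8 to 54.6 in PVR, so the groups did not overlap.

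**Figure D3:**
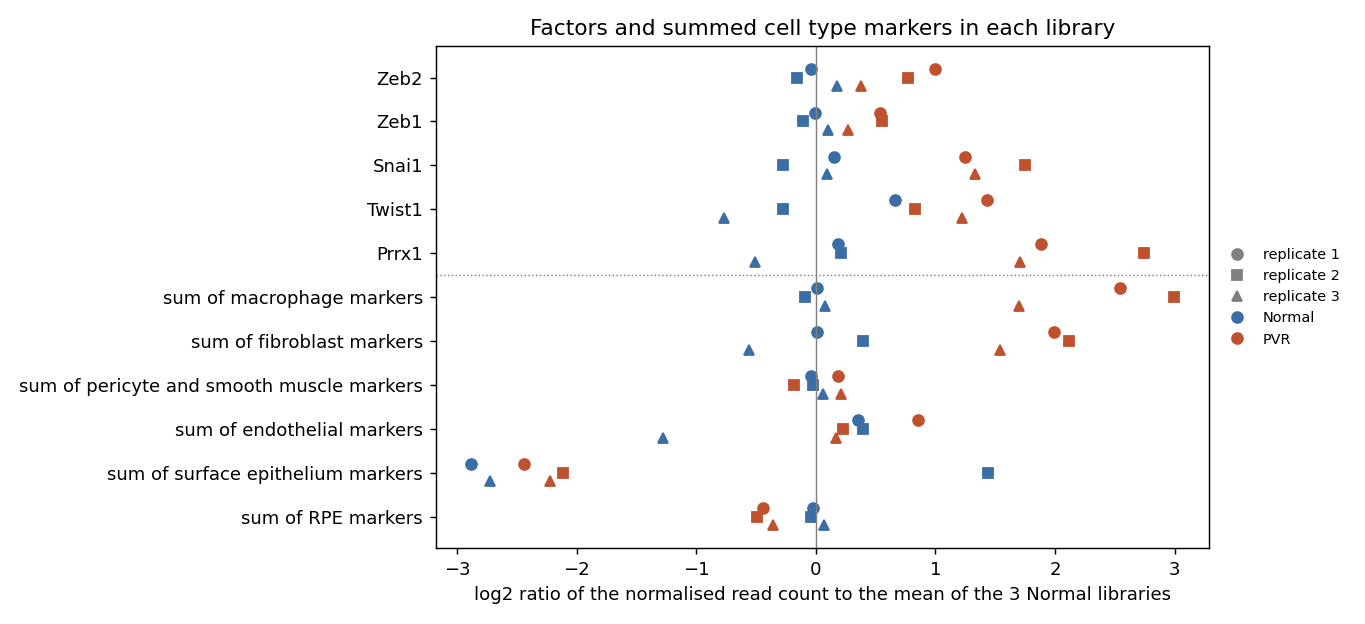
Log2 ratio (x axis) of the normalised read count to the mean of the 3 Normal libraries, for the 5 tested factors and for summed markers of 6 cell types, with Normal in blue, PVR in orange and a marker shape for each replicate number. Macrophage and fibroblast sums lie on the PVR side together with the factors, and Normal replicate 2 stands alone for surface epithelium. Csf1r, which was lower in PVR, makes up most of the macrophage sum in Normal.

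Among 20 other transcription factors known to induce the transition, 19 were tested, of which 10 rose and none fell (median log2 change 0.92), against 17.9% higher, 12.9% lower and a median of -0.02 over all genes tested. The count of 10 fell to 5 without PVR replicate 1, to 6 without PVR replicate 2 and to 9 without Normal replicate 2. Hmga2, an architectural factor upstream of Snai1 and Twist1, was at 0 in all 3 Normal libraries and at 63.8, 268 and 32.1 normalised reads in PVR. The PVR mean of Hmga2 was 121 ± 128 (SD, n = 3), raised most by replicate 2. That mean is at least 42.3-fold above the limit that a count of 0 allows per library (adjusted p = 0.000284 by limma). Runx2, the osteoblast regulator, rose from 11.4 ± 6.61 to 80.8 ± 25.1, with an adjusted p of 0.00156 by limma. Genes low in Normal, such as Hmga2 and Runx2, passed the filter on low reads only through PVR. They could only be called higher, which limits the comparison of this list with all genes. The same limit holds in the other lists, as for Prkd1 among the cofactors and Muc1 among the epithelial genes. Zfp703, a repressor of the NET family, and Foxc1, a forkhead factor of the eye's anterior segment, rose by log2 changes of 1.77 and 1.33. Tcf3, the E protein E2A that pairs with Twist proteins, was not called (-0.05, adjusted p = 0.749 by limma).

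Of 18 further factors that maintain epithelia, 16 were in the tables and 6 had enough reads to test. Esrp2, an epithelial splicing regulator, stood at 51.5, 79.6 and 61.6 normalised reads in Normal and at 20.6, 26.2 and 45.3 in PVR. The groups did not overlap, and it fell by 1.10 on the log2 scale (adjusted p = 0.0404 by limma). Grhl1, the paralogue of Grhl2, rose from 131 ± 26.0 to 195 ± 21.2 (log2 change 0.59, adjusted p = 0.0468 by limma), the opposite direction to the Grhl2 reads. Neither call was made by edgeR (adjusted p = 0.0596 for Esrp2 and 0.0569 for Grhl1), and each was also lost when some single libraries were left out. Without Normal replicate 2 they were -0.93 and 0.43, with adjusted p of 0.125 and 0.161 by limma. The list then had 2 higher and none lower: Klf5, a zinc-finger factor (log2 change 1.60, adjusted p = 0.00919 by limma), and Elf3, an epithelial ETS factor (1.39, adjusted p = 0.0156 by limma). With all libraries limma called neither Klf5 (1.19, adjusted p = 0.0654) nor Elf3 (0.82, adjusted p = 0.214), while DESeq2 called Klf5 (0.0282). Klf4, a zinc-finger factor of barrier epithelia, was at 1289 ± 1085 and 2695 ± 1976 and not called (adjusted p = 0.306 by limma), but it was called with the replicate number as a block (8.7e-05).

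Cofactors that Snail, Twist and Zeb proteins recruit, and the kinases and ligases that set their stability, were called at shares not far from those of all genes (17.9% higher, 12.9% lower): of 24 tested, 4 rose and 5 fell (median -0.02). Only 2 were higher without Normal replicate 1, Normal replicate 2, PVR replicate 1 or PVR replicate 2. Pak1, a kinase that phosphorylates Snail, rose from 16.1 ± 6.9 to 134 ± 44.6 (log2 change 3.0, adjusted p = 0.0005 by limma). Lats2, a Hippo kinase that acts on Snail in the nucleus, fell by 0.71 and Ctbp2, a corepressor bound by Zeb proteins, by 0.63 on the log2 scale. Of the LIM proteins that bridge Snail to its corepressors, Wtip fell by 0.75 and Limd1 rose by 0.53. The other 2 that rose, Ezh2, a histone methyltransferase (0.60, adjusted p = 0.0384 by limma), and Prkd1, a kinase of Snail (1.34, adjusted p = 0.0477 by limma), each lost their call without any 1 of those 4 libraries. Prkd1 was also not called by edgeR (adjusted p = 0.0534), DESeq2 (0.0587) or limma with the replicate number as a block (0.0595). Ezh2 also lost its limma call with no filter (0.0519) and under scaling to library totals (0.0641). Among the inhibitors of helix-loop-helix factors such as Twist, Id2 rose from 2254 ± 305 to 3253 ± 236 (log2 change 0.54, adjusted p = 0.0083 by limma), the 1 of 4 tested genes on its list that limma called with all libraries. Id3 stood at 1711, 917 and 2529.5 normalised reads in Normal and 4568, 3364 and 3373 in PVR, without overlap (log2 change 1.24, adjusted p = 0.0627 by limma). It was called by edgeR (adjusted p = 0.028) and DESeq2 (0.000392), and by limma without Normal replicate 2 (0.013) or Normal replicate 3 (0.0122).

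The epithelial genes that these factors are known to repress were split. Of 22 tested of 30, 7 fell and 3 rose (median log2 change -0.19), and 7 fell and 6 rose without Normal replicate 2. Over all genes tested, 17.9% rose and 12.9% fell. With Normal replicate 2 left out, 2733 of 16324 genes rose and 1489 fell. Cgn, the tight junction protein cingulin, stood at 1382, 1397 and 1163 normalised reads in Normal and 452, 433 and 551 in PVR, and fell by 1.46 on the log2 scale (adjusted p = 8.29e-05 by limma). Dsp, the desmosomal protein desmoplakin, fell by 1.48, Cldn7, a claudin, by 2.2, and Krt8, a simple-epithelium keratin, by 0.67 on that scale. Pard6b and Tjp3, whose promoter windows are printed above, fell by 0.93 and 0.85. The 3 that rose were Cdh3, P-cadherin, which the RPE expresses in place of E-cadherin (4943 ± 860.4 to 10764 ± 465), the mucin Muc1 (13.2 ± 4.78 to 49.1 ± 9.17) and the integrin Itgb4. The call on Itgb4 (log2 change 0.76, adjusted p = 0.0463 by limma) was not made by edgeR (0.067), and was lost with any single library left out except Normal replicate 2 (adjusted p of 0.0836 to 0.131 by limma) and under scaling to library totals (0.084).

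Cdh1, the textbook target of Snai1, Zeb1 and Zeb2, gave no call. It stood at 3.09, 59.3 and 3.63 normalised reads in Normal and 13.4, 17.1 and 19.8 in PVR. The high Normal value is that of replicate 2, the library with the surface epithelium markers. The log2 change was 0.75 (adjusted p = 0.609 by limma) in all libraries, -0.40 in edgeR (adjusted p = 0.786), and 2.01 (adjusted p = 0.0231 by limma) without that library. With that library the direction of Cdh1 thus differed between the tests, and without it limma called Cdh1 higher.

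An E2 box lay in at least 1 promoter window of 13 of the 20 epithelial genes with a window (65.0%), of 5 of the 7 genes that fell (71.4%) and of 19.4% of all 27025 genes. Those 5 were Cldn7, Crb3, Krt8, Pard6b and Tjp3. Crb3, an apical polarity protein, holds 3 boxes, a number reached by 0.247% of all windows. Its 2 windows overlap and hold the same 3. The call on Crb3 (log2 change -1.63, adjusted p = 0.0191 by limma) was lost with no filter (0.0565). It was also lost without Normal replicate 1 (0.0606), Normal replicate 3 (0.0558) or PVR replicate 1 (0.0815), all by limma. Ap1m2, an epithelial gene of the list with too few reads to test, holds 4 boxes. Cgn and Dsp fell without a box in their windows. The mesenchymal genes had no box in the windows of the 14 genes with one. Among the factors themselves, 1 of 6 with a window held a box, which was Snai1. The epithelial genes were listed as known targets, so their share of boxes is a description of that list.

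Genes of the mesenchymal state that these factors are known to raise moved mostly one way: of 24 tested of 25, 20 rose and 1 fell (median log2 change 2.17). Over all genes tested, 17.9% rose and 12.9% fell, with a median of -0.02. Vim, the intermediate filament vimentin, rose from 2446 ± 287 to 13285 ± 3533 (log2 change 2.41, adjusted p = 0.000146 by limma). Tnc and Postn, matrix proteins of wounds, rose by log2 changes of 3.48 and 3.77, and Mmp14, a membrane-bound matrix metalloprotease, by 1.98. Spock1, a proteoglycan, fell by 0.68 on the log2 scale (adjusted p = 0.00544 by limma). Cdh2, N-cadherin, stood at 542, 518 and 775 normalised reads in Normal and 909, 1105 and 726 in PVR. Its groups overlapped, and it was not called by limma (log2 change 0.58, adjusted p = 0.0527) but was called by DESeq2 (adjusted p = 0.0241). Col1a1, Col1a2, Col3a1 and Pdgfra are on both the mesenchymal and the fibroblast list, whose markers moved with the groups as given above. The collagens among them, at PVR means of 6769, 6372 and 4102, make up most of the fibroblast sum in PVR. The 2 lists are therefore not independent.

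**Figure D4:**
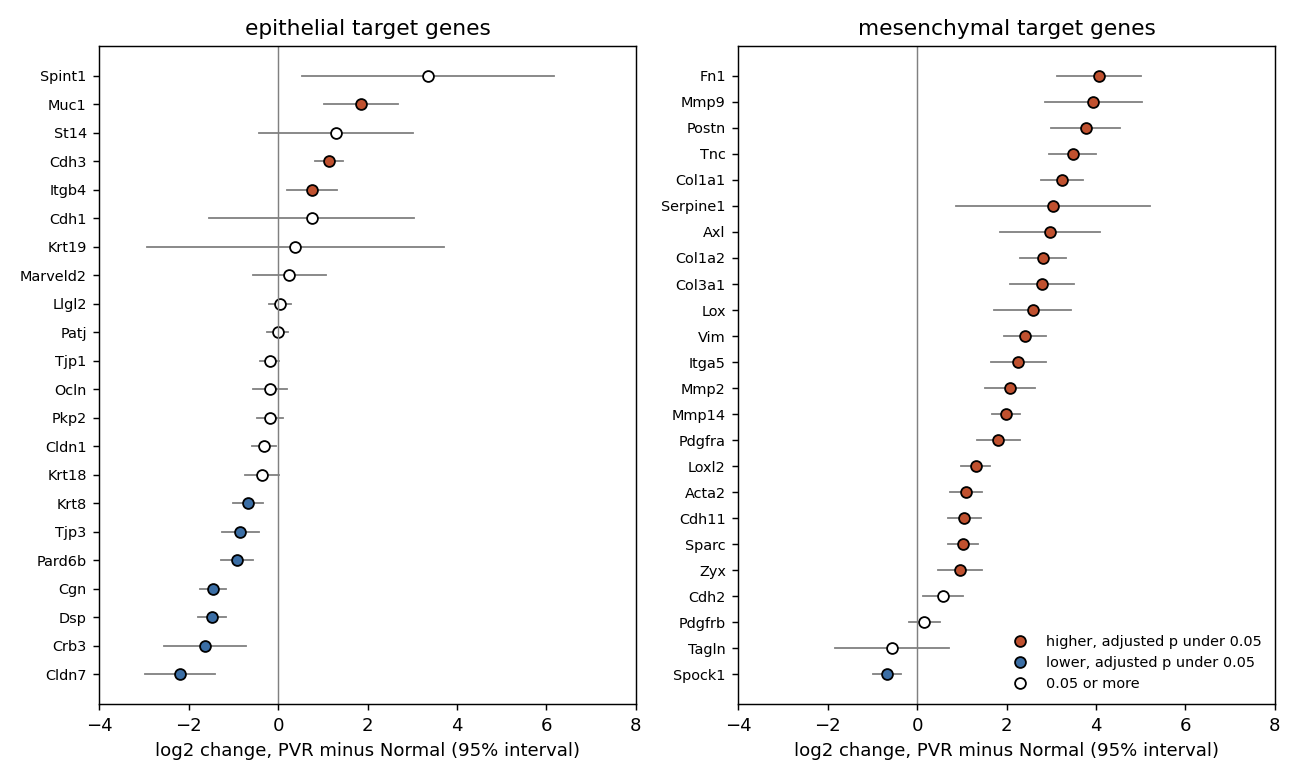
Log2 change (x axis, PVR minus Normal, with 95% interval) of the tested epithelial genes (left) and mesenchymal genes (right), orange where higher, blue where lower and open where the adjusted p of limma was 0.05 or more. On the left 7 genes are lower and 3 higher, and on the right 20 are higher and 1 lower.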

How the data were processed

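Groups and replicate numbers came from the sample titles. The authors deposited 1 normalised signal value for each gene symbol. From the values themselves, it is the count of reads over a size factor common to the library. Read numbers were recovered from the step between values, and 100% of values came out whole within 0.01 reads. DESeq2 and the build mm10 appear, per the submitters' processing notes, with no step attached. The sources used here name no aligner, counter, strand setting or annotation. Coordinates, exon lengths and overlaps are from GENCODE M21 (GRCm38, 1-based), which matched 27362 of the 28043 symbols.

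Genes were tested with limma 3.58.1 (R 4.3.3, trend and robust moderation) on log2(normalised count + 1), a scale that understates changes of low genes. The 15766 genes that passed filterByExpr of edgeR 4.0.16 on the recovered reads (minimum count 10) were tested, with Benjamini-Hochberg adjustment over all of them and a threshold of 0.05. On those reads the quasi-likelihood test of edgeR called 2788 genes higher and 1907 lower, DESeq2 1.42.0 called 2889 and 1935, and limma on the deposited scale 2825 and 2033. All were first tested on simulated data. Alternatives were other tests, pseudocounts, filters and scalings, the replicate number as a block, and libraries left out. Fits with no filter for the low factors, and coding-transcript lengths, were added after the data were seen. Same-numbered libraries deviated together from their group means (r = 0.206, 0.195 and 0.179 over 15766 genes). The values for differing numbers (-0.137 to -0.069) are not independent of these, because deviations from a group mean cancel out. The labels state no pairing, so whether the numbers pair the samples is not known.

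The members and lists were chosen with earlier results of these data known. Named from each list were up to 4 genes of smallest p and those called against the list's majority, with Cdh1, Cdh2, Vim and Krt8. For each called factor the 3 genes of highest correlation were named. Outside this rule, and chosen after their values were seen, are Tcf3, Klf4, Pard6b, Tjp3, Crb3, Ap1m2, Cldn4, Epcam, Best1 and Tcf21. So are the genes whose exons overlap a factor, and some of the genes named as shared between lists. No pair of libraries was a duplicate (chi-square of at least 17.78 per gene). Figures were drawn with matplotlib 3.10.9.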

Additional observations from a re-analysis of the deposited data

How the results depend on the processing

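Prrx1, Zeb2 and Snai1 kept their direction and call in all 18 alternatives, and 5 factors were called higher under every alternative test, pseudocount, filter and scaling. As single libraries were left out, 3 to 4 factors were called higher (3 without Normal replicate 2 and without PVR replicate 1), genes higher ranged from 2193 to 2844 and genes lower from 1307 to 2026, with 1307 without Normal replicate 1. No factor was called lower by limma except with no filter, where 1, Grhl2, was. With the replicate number as a block, a pairing that the labels do not state, 5 factors, 3079 genes higher and 2249 lower were called. The block changed no factor's call. Cdh1 reversed in edgeR (-0.40) and DESeq2 (-0.39), and Ovol2 reversed with no filter and without PVR replicate 1 (-0.08). The cause of these changes was not tested. Scaling to library totals moved the median of all genes from -0.02 to -0.09.

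Depth limits Snai2, Snai3, Twist2, Grhl2 and Ovol2, with at most 20 reads in any library. An exact permutation test of 3 against 3 libraries cannot give a p below 0.1 for a single gene, so calls rest on spread shared across genes.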

Other observations

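Other markers not described above moved in both directions. Over all genes tested, 17.9% were called higher in PVR and 12.9% lower. Of 7 tested melanocyte markers, 3 rose and 2 fell in PVR, and the list shares Dct and Pmel with the RPE list. Only 1 fell without Normal replicate 2 or without PVR replicate 2. Of 7 tested Schwann cell markers 3 rose and 1 fell. With any single library left out only 1 to 2 of the Schwann cell markers were higher and 0 to 2 lower, and 1 was higher without Normal replicate 1, PVR replicate 1 or PVR replicate 3. Photoreceptor markers summed to 4061 to 5124 normalised reads in Normal and 2440.4 to 3393 in PVR, with 1 of 10 called lower and none higher, or 2 higher without Normal replicate 2. The median log2 change of the photoreceptor markers was 0.64, so the fall of their sum does not stand for the typical marker.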
